A study of Mus musculus with 2 samples.

Results

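The genes described here code for 9 proteins of the red cell surface, of which most carry a human blood group: Gypc, Slc4a1, Rhag, Rhd, Kel, Ermap, Icam4, Cd47 and Aqp1. The rule took them by name and used no measured value, although the set was proposed with earlier results of these data known. All 9 had a row among the 43346 gene rows of the deposited tables, with 29 annotated transcripts between them. The cells were G1E-ER4, a mouse erythroid line without functional Gata1 of its own, in which Gata1 has been put back as a fusion with an estrogen receptor domain that estradiol switches on. All the cells profiled had received 10 nM 17beta-estradiol for 7 h, so both the loss of the endogenous factor and the fusion were shared by every sample. There were 2 polyA RNA libraries of this 1 group, called replicate 1 and replicate 2, with no untreated or later sample. The labels call the line immortalized, male and postnatal, and number the libraries as biological replicates 1 and 2. Both libraries nevertheless cite the same biological sample, so their spread may be technical.

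The mature red cell membrane is built around a few abundant complexes. Band 3, the product of Slc4a1, exchanges chloride for bicarbonate and is tied through ankyrin to the spectrin network, and it sits close to the Rh complex of Rhag and the Rh protein. Glycophorin C, the product of Gypc, is the anchor of a separate complex held by protein 4.1. Around these lie the adhesion and immune proteins Icam4, Cd47 and Ermap, the peptidase Kel, which is joined to the Xk protein, and the water channel Aqp1. In erythroid cells many of these genes are known targets of Gata1 and Klf1, and their products accumulate at different times during maturation.

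The libraries held 59610967 and 44689405 expected counts, the authors' estimate of fragments per gene, in replicates 1 and 2. The 9 genes took 24707 counts, or 0.0414%, in replicate 1 and 14399 counts, or 0.0322%, in replicate 2. Levels are given in TPM, a transcript abundance scaled by transcript length and to the same total in each library, so that genes can be compared. The erythroid label was checked on marker genes. All 8 erythroid markers reached a TPM of 1 in each library, with a summed TPM of 22897 and 15562. Alas2 was the lowest of them at 9.32 and 3.14. Gata1, 1 of the 8 and part of that sum at 1250.55 and 872.16, was put back in this line as the fusion. Its presence therefore does not bear on the label. Of other cell types, 0 of 6 endothelial, 0 of 6 myeloid, 0 of 5 lymphoid and 0 of 4 epithelial markers reached a TPM of 1. Itga2b, at 5.12 and 4.21, was the only megakaryocyte marker of 7 to do so, and Hdc, at 8.51 and 6.74, the only mast cell and basophil marker of 5. The summed TPM was 6.31 and 5.45 for the megakaryocyte list and 0.03 and 0.67 for the myeloid list, and the platelet genes Gp6, Gp1bb and Ppbp were listed at 0. The part of these cell types in the levels below was not tested.

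Transcripts of 7 of the 9 genes reached a TPM of 1 in each library and are called present, and the other two, Slc4a1 and Aqp1, were below it. Over all 21474 protein-coding genes 38.3% reached that level. From the highest mean to the lowest the order was Ermap, Icam4, Gypc, Cd47, Rhag, Rhd, Kel, Slc4a1 and Aqp1, and the mean TPM ran from 77.8 down to 0.01. Among protein-coding genes ranked by mean TPM, Ermap stood at percentile 91.7, Icam4 at 90.8, Gypc at 89.5, Cd47 at 81.8, Rhag at 76.0, Rhd at 70.1, Kel at 64.8 and Slc4a1 at 57.7. In bulk RNA a low level can come from fewer cells with the transcript or from less of it in each cell, and these cannot be told apart. In 6 of the 8 neighbouring pairs of this order both library values of the higher gene lay above both values of the lower gene. Ermap and Icam4, and Icam4 and Gypc, were not separated in this way.

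**Figure D1:**
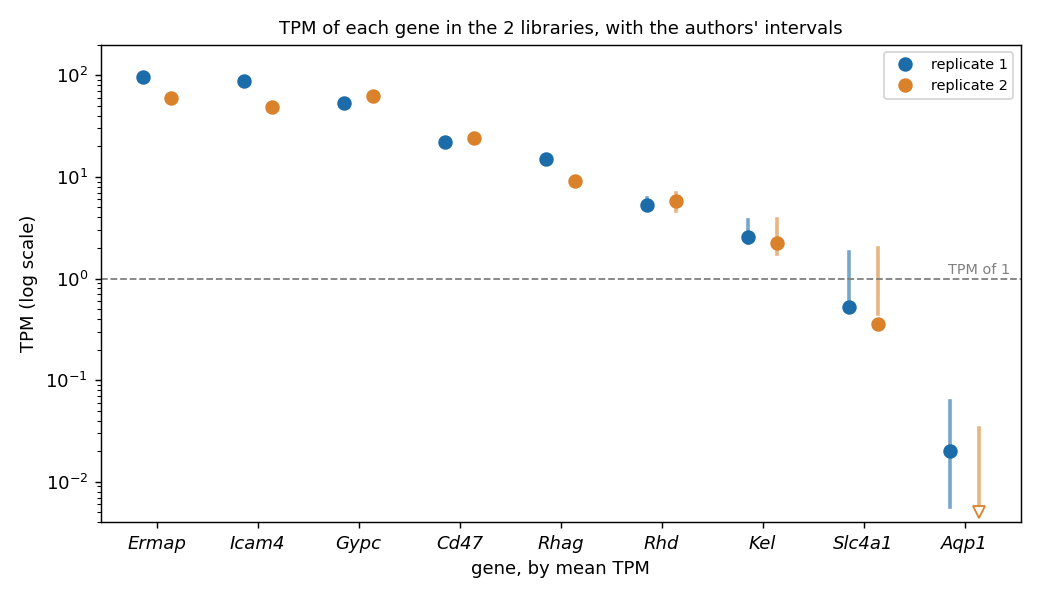
TPM (log axis) of each of the 9 genes in replicate 1 and replicate 2, ordered by mean, with vertical lines for the authors' interval and an open triangle for a gene listed at 0. The dashed line marks a TPM of 1; Slc4a1 and Aqp1 lie below it in both libraries, and the points of Slc4a1 lie under their own intervals.

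The anion exchanger gene Slc4a1 (ENSMUSG00000006574.11, chromosome 11, 102348824 to 102366203 on the minus strand, GRCm38) was low beside the genes of the proteins it works with. It had a TPM of 0.52 in replicate 1 and 0.36 in replicate 2, or 0.440 ± 0.113 (SD, n = 2), from 115 and 56 expected counts. The counts themselves were well above 0, with exact Poisson 95% intervals of 94.9 to 138 and 42.3 to 72.7, which cover counting error only. All counts were given to the full-length coding transcript, and the 4 short noncoding models had 0 counts in both libraries. The authors' intervals for the gene, 0.582 to 1.81 and 0.452 to 1.99, nevertheless lay above the TPM values, and their posterior mean TPM was 1.1 in both libraries. The full-length transcript made 46.4% and 32.7% of that posterior mean, and the rest fell to the short models without counts. Its own intervals, 0.420 to 0.605 and 0.266 to 0.451, lay wholly below a TPM of 1. Only the estimate for the whole gene, with those short models, reached 1. The confidence level of those intervals is not given in the sources used here.

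Ank1, the ankyrin that holds band 3 on the spectrin network, stood at a TPM of 199.92 and 197.90, which is 384 and 550 times the TPM of Slc4a1. By posterior mean TPM, where Slc4a1 is higher and its short models without counts are included, that ratio was 179 and 177. Sptb, the beta spectrin of the red cell, stood at 339.40 and 317.84. Car2, a cytosolic carbonic anhydrase that supplies bicarbonate to band 3, had a TPM of 397.74 and 421.06. Epb42, the protein 4.2 gene, whose product binds band 3 and ankyrin, was low as well, at 0.25 and 0.32. Within the family of bicarbonate carriers the broadly expressed Slc4a2 was far above Slc4a1, at a TPM of 25.58 and 32.50, or 49.2 and 90.3 times as high, and 24.4 and 30.8 times as high by posterior mean. The transcripts for the anchor under band 3 were thus abundant in both libraries, and those for band 3 itself and for protein 4.2 were not.

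The 2 genes of the Rh complex were both present, and in unequal amounts. Rhag (ENSMUSG00000023926.7, chromosome 17, 40811126 to 40840754, plus strand), whose product is needed to bring the Rh protein to the surface and conducts ammonia, had a TPM of 14.89 and 9.01, or 11.95 ± 4.16 (SD, n = 2), from 1647 and 699 counts. Rhd (ENSMUSG00000028825.7, chromosome 4, 134864536 to 134896172, plus strand), the mouse gene for the Rh protein itself, had a TPM of 5.26 and 5.78, or 5.52 ± 0.368, from 362 and 230 counts. Rhag was the higher of the pair in both libraries, by 2.83 times in replicate 1 and 1.56 times in replicate 2. The ratio was 2.19 ± 0.899 (SD, n = 2), so its size was poorly fixed although its direction was the same. With all counts of each gene on its full-length transcript it was 2.83 and 1.90 times, or 2.36 ± 0.660. The relatives of Rhag outside the red cell line, Rhbg and Rhcg, had 0 counts in both libraries and 1 and 0 counts.

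Rhd is annotated with 2 transcripts, and the libraries differed in how its counts were divided. Replicate 1 gave all of them to the full-length coding Rhd-201. Replicate 2 gave 195.93 counts to Rhd-201 and 34.07 counts to Rhd-202, a retained-intron model of 701 bases, which made 29.9% of the gene's TPM and 14.8% of its counts. The authors' interval for Rhd-202 was 0.144 to 3.12 TPM in replicate 2 and reached 1.18 in replicate 1, so the intervals overlapped and a difference in this transcript was not separable from the uncertainty of the estimate. On Rhd-201 alone the TPM was 5.26 and 4.05. The gene Tmem50a lies 1676 bases from Rhd on the opposite strand and had a TPM of 4.99 and 5.14.

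Glycophorin C was abundant and similar in both libraries. Gypc (ENSMUSG00000090523.2, chromosome 18, 32528322 to 32560034, minus strand), the anchor of the protein 4.1 complex and carrier of the Gerbich antigens, had a TPM of 53.42 and 61.88, or 57.7 ± 5.98 (SD, n = 2), from 5471 and 4444 counts. The coding model Gypc-203 made 97.2% and 96.6% of it, and Gypc-202 made 2.85% and 3.43%. Gypc-201 was listed at 0 in both libraries. Epb41, which codes for the protein 4.1 that holds it, had a TPM of 60.84 and 56.11, close to that of Gypc itself. Mpp1, the third protein of that complex, had 11.42 and 14.54.

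Cd47, the surface ligand that restrains phagocytes through SIRP alpha and is linked to the Rh complex, was also evenly measured. The gene (ENSMUSG00000055447.14, chromosome 16, 49800533 to 49915010, plus strand) had a TPM of 22.03 and 24.21, or 23.1 ± 1.54 (SD, n = 2), from 5638 and 4378 counts. These bounds come from a later annotation than the counts, and the 2 coding models counted begin further in, at 49855645 and 49855366. The longer of the 2 models held 98.4% and 99.6% of the TPM. Its level was above that of Rhag, by 1.48 and 2.69 times. Sirpa, the receptor that faces Cd47 on the phagocyte, had 1 and 0 counts. The transcripts for the ligand were thus present with next to none for its receptor.

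Icam4 (ENSMUSG00000001014.5, chromosome 9, 21029373 to 21030595, plus strand), the Landsteiner-Wiener antigen and an integrin ligand with which erythroblasts bind macrophages, stood at a TPM of 87.43 and 48.79, or 68.1 ± 27.3 (SD, n = 2), from 3328 and 1315 counts. It lies in a row of related genes, with Icam1 555 bases to its left and Icam5 1477 bases to its right, all on the same strand. Those neighbours were low, at 1.71 and 1.84 for Icam1 and 3.64 and 4.19 for Icam5. The level of Icam4 was therefore not shared along the cluster. Icam2, on another chromosome, had 111.14 and 106.80, and exceeded Icam4 by 1.27 and 2.19 times. Of the integrin genes on the partner list whose products can bind Icam4, Itgb1 had 59.87 and 61.51, Itga4 28.79 and 24.64, Itgav 19.84 and 46.02, and Itgb3 0.50 and 0.49. A later annotation places the antisense gene Gm47079 across Icam4, and whether the counting used strand is not given in the sources used here, so reads from both strands cannot be told apart.

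Ermap (ENSMUSG00000028644.12, chromosome 4, 119175457 to 119190011, minus strand), an immunoglobulin superfamily protein of erythroid cells that carries the Scianna antigens, had the highest mean. Its TPM was 96.10 in replicate 1 and 59.46 in replicate 2, or 77.8 ± 25.9 (SD, n = 2), from 7904 and 3185 counts. It has 9 annotated transcripts, and 2 short models with an open 3' end, Ermap-202 and Ermap-204, took most of the TPM but few of the counts. Together they held 59.8% and 70.4% of the gene's TPM, with 20.9% and 22.7% of its counts. The long models Ermap-201 and Ermap-206, of 4378 and 4551 bases, held 27.8% and 25.4% of the TPM with 74.5% and 72.7% of the counts. Ermap-206 is the full-length coding transcript and Ermap-201 is annotated as a target of nonsense-mediated decay.

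The libraries differed in which short model they favoured. Ermap-202 had a TPM of 57.50 in replicate 1 and 10.06 in replicate 2, and the authors' intervals, 51.4 to 59.96 and 1.89 to 16.3, did not overlap. Ermap-204 was listed at 0 in replicate 1 and at 31.77 in replicate 2, from 0 and 518.33 counts, and its intervals, 0 to 3.68 when rounded and 22.3 to 39.7, did not overlap either. Their sum was steadier than either alone, at 57.50 and 41.83. Both models share most of their exons with the long ones. Numbered along Ermap-206, the 2 models part at the start of exon 5: Ermap-202 leaves out its opening 6 bases, while Ermap-204 keeps them, as do Ermap-201, Ermap-203 and Ermap-206. Ermap-204 further starts at a first exon of 46 bases that the long models lack. It lies inside a longer exon of Ermap-209 and ends at the same base. Ermap-209, another short model with an open 3' end, had a TPM of 6.19 and 0.27. The sequences across that junction are shown because these bases are what distinguishes the models there. Each gives 30 bases of exon 4 (chr4:119187096-119187125) and then exon 5 down to position 119185787, on the minus strand of GRCm38, with the bases that Ermap-202 lacks in capitals.
Ermap-206: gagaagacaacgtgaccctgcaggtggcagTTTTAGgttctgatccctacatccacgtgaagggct
Ermap-202: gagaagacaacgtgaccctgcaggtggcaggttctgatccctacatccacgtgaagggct
The inserted stretch ends in AG, as the last bases of an intron do, and the exon of Ermap-202 begins right after it. Ermap-204 has the same letters as Ermap-206 here.

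**Figure D2:**
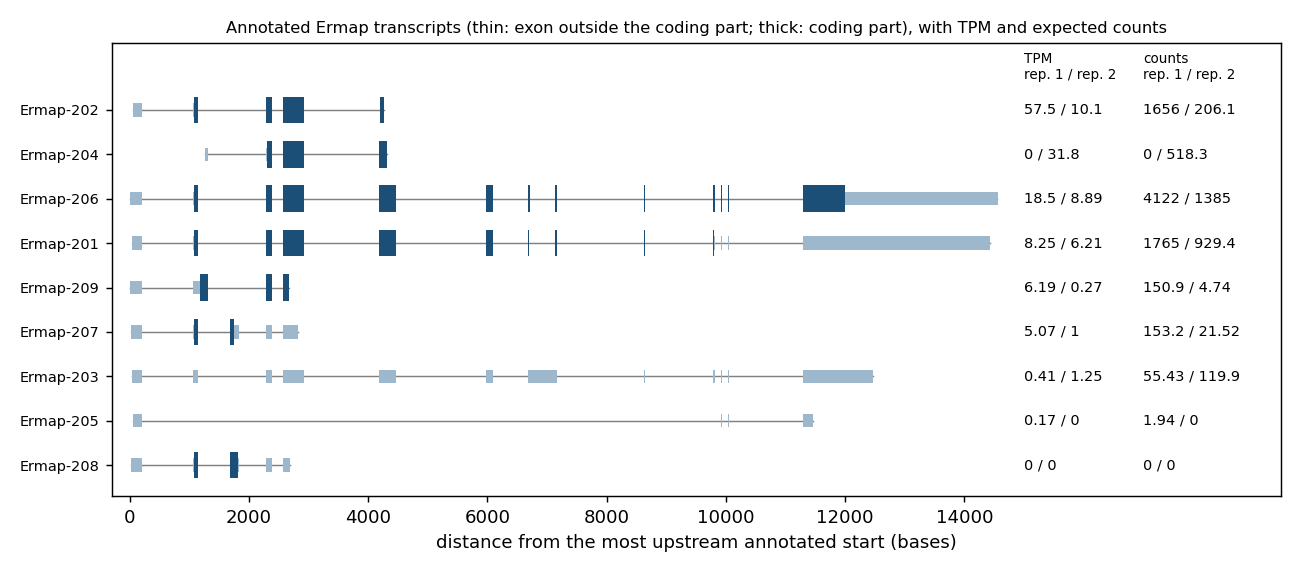
The 9 annotated Ermap transcripts drawn to scale by distance in bases from the most upstream start (thick boxes for coding parts, thin boxes for other exon parts, lines for introns), with TPM and expected counts in replicate 1 and replicate 2. Ermap-202 and Ermap-204 end within exon 5 of Ermap-206 and carry most of the TPM; Ermap-206 and Ermap-201 run to the last exon and carry most of the counts.

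How much Ermap there was therefore depended on the model used. With all counts of the gene placed on the full-length Ermap-206, a calculation chosen after the values were seen, its TPM was 35.5 and 20.5, or 28.0 ± 10.6 (SD, n = 2), in place of 77.8. In that scaling the order was Icam4, Gypc, Ermap and Cd47, and Ermap and Cd47 were not separated. The counts of the gene were not affected, and Ermap had more counts than any other of the 9 genes in replicate 1, while Gypc and Cd47 had more in replicate 2.

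Kel (ENSMUSG00000029866.9, chromosome 6, 41686330 to 41704339, minus strand), a zinc endopeptidase joined to the Xk protein by a disulfide bond, was the lowest of the genes present. Its TPM was 2.54 and 2.25, or 2.395 ± 0.205 (SD, n = 2), from 239 and 92 counts. The near-equal TPM hid an unequal count, because the length given to the gene differed between the libraries. The full-length Kel-201 held 97.6% and 88.0% of the counts but 76.1% and 42.9% of the TPM. The 4 shorter models made 23.9% and 57.1% of the TPM from 5.81 and 11.01 counts. With all counts on Kel-201 the TPM was 1.99 and 1.09, further apart than the deposited values. Xk had a TPM of 24.92 and 26.24, or 9.81 and 11.7 times that of Kel, with a mean ratio of 10.7 ± 1.31 (SD, n = 2). Against the Kel TPM with all counts on Kel-201 it was 12.5 and 24.0 times, or 18.3 ± 8.13, so Xk was the higher of the pair by either scaling but the size of the ratio was not fixed. Of the related peptidases, Ece2 had 8.68 and 4.12 and Ece1 had 2.74 and 2.22. The unclassified gene Gm37527 overlaps Kel on the same strand and was given 7 counts in each library, so few reads were in question.

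**Figure D3:**
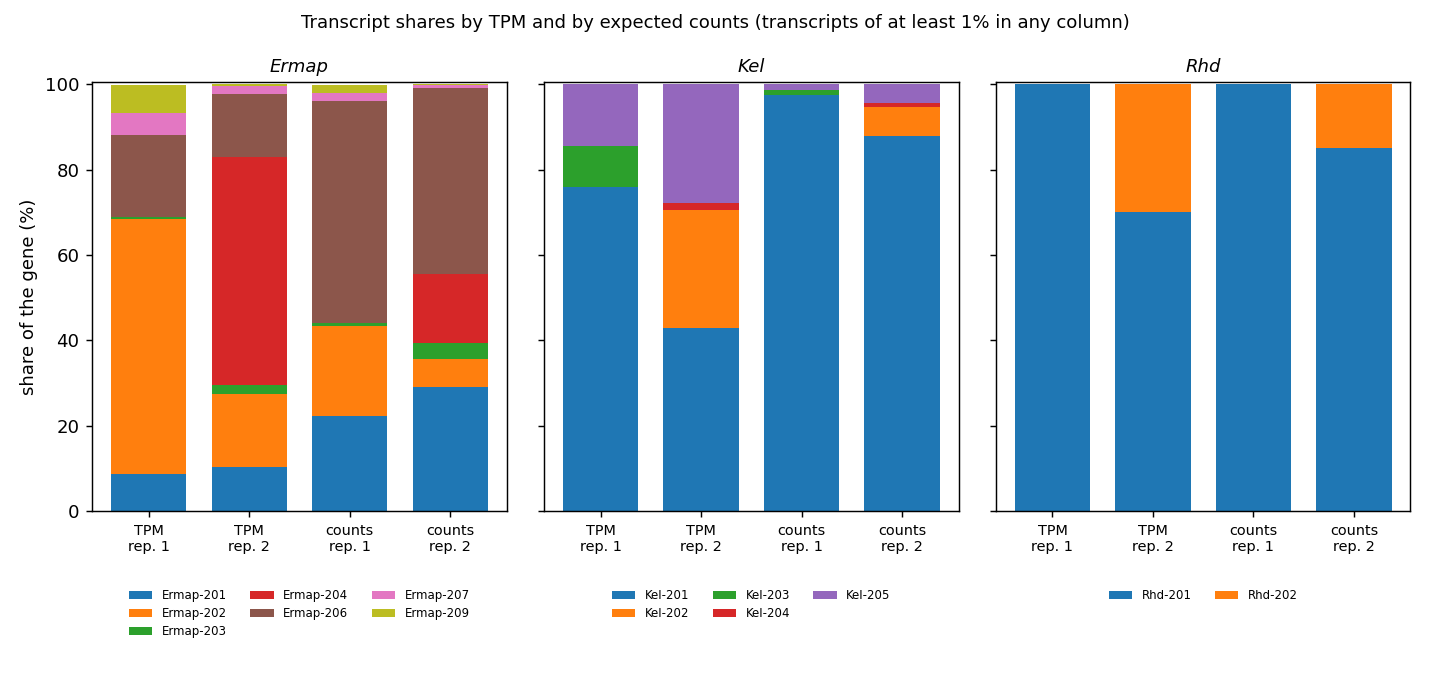
Share (%) of each annotated transcript in Ermap, Kel and Rhd, as stacked bars by TPM and by expected counts in replicate 1 and replicate 2; transcripts under 1% in every bar are left out. In Kel the full-length Kel-201 makes 42.9% of the TPM but 88.0% of the counts in replicate 2, and in Ermap the short models Ermap-202 and Ermap-204 exchange places between the libraries.

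Aqp1 (ENSMUSG00000004655.5, chromosome 6, 55336432 to 55348555, plus strand), the water channel of the red cell and carrier of the Colton antigens, was at the limit of detection. It had 3 counts in replicate 1, with an exact Poisson 95% interval of 0.619 to 8.77, and 0 in replicate 2, so no fold between the libraries is given. A limit of 3 counts corresponds to a TPM of 0.0240 and 0.0342 in these libraries. Among the other aquaporins Aqp11, an intracellular channel, had a TPM of 8.93 and 6.99, and Aqp3, which also passes glycerol, had 8.47 and 2.79. These were the only aquaporins of the list that were present. Aqp8 had 1.07 and 0.59 and Aqp9 had 0.09 and 0.13. The water channel for which the red cell is known was thus rarer than either.

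Between the 2 libraries none of the 8 genes with at least 10 counts in all differed by 2-fold or more in TMM-scaled counts, beside 13.2% of 11285 genes so measured, 9.64% lower and 3.51% higher in replicate 2. By TPM none of the 8 was 2-fold apart, beside 8.89% of all genes. This compares 2 libraries, not conditions, and no test was made. The log2 ratio of replicate 2 over replicate 1 was below 0 for 6 of the 8, beside 51.6% of all genes, and its median was -0.51 beside -0.02 over all genes. At a fold of 1.5, 4 of the 8 differed, Icam4, Rhag, Ermap and Kel, all lower in replicate 2, beside 33.2% of all genes in either direction and 20.2% in that direction. The ratios were -0.75 for Kel, -0.71 for Icam4, -0.69 for Ermap, -0.61 for Rhag, -0.41 for Slc4a1 and -0.03 for Rhd. Gypc at 0.33 and Cd47 at 0.26 were the only ones above 0.

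Read by the authors' intervals, the genes divided in a partly different way. The intervals did not overlap between the libraries for 5 of the 9 genes, close to the 56.4% of all genes. That share is over the 11285 genes with at least 10 counts, which leave out Aqp1. Ermap, with intervals of 91.3 to 99.6 and 54.1 to 63.2, Icam4, with 83.1 to 88.9 and 45.3 to 50.5, and Rhag, with 13.97 to 15.4 and 8.20 to 9.51, were lower in replicate 2, as were 32.4% of all genes. Gypc, with 51.2 to 54.0 and 58.9 to 62.5, and Cd47, with 21.1 to 22.3 and 23.1 to 24.5, were higher in replicate 2, as were 24.1% of all genes. The intervals of Rhd, Kel, Slc4a1 and Aqp1 overlapped, although Kel was past a fold of 1.5 by counts. Gypc and Cd47, with intervals apart, were under that fold.

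**Figure D4:**
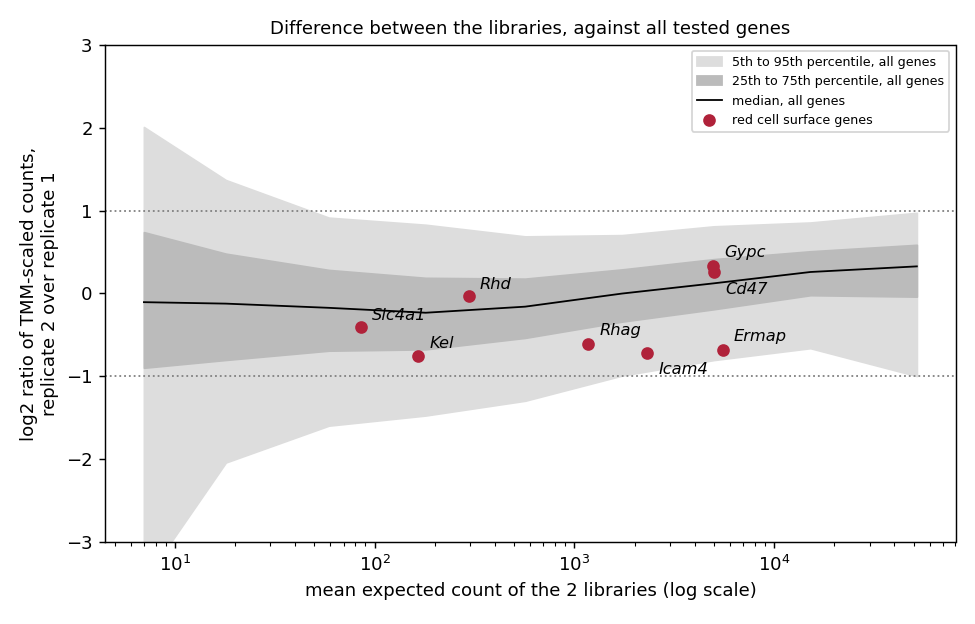
Log2 ratio of TMM-scaled expected counts, replicate 2 over replicate 1, against the mean expected count (log axis) for the 8 genes with at least 10 counts; grey bands give the 5th to 95th percentiles and the interquartile range of all tested genes by count, the line their median, and dotted lines a fold of 2. All 8 points lie inside the wider band, and Ermap, Icam4, Rhag and Kel lie below the narrower one.

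The size of these differences can be read against genes of like count. Among 1968 genes with a mean of 3000 to 10000 counts, where Ermap, Gypc and Cd47 lie, the 5th and 95th percentiles of the log2 ratio were -0.80 and 0.81. For 2272 genes with 1000 to 3000 counts, where Icam4 and Rhag lie, they were -0.99 and 0.70. For 1330 genes with 100 to 300 counts, where Rhd and Kel lie, they were -1.47 and 0.83. Each of the 8 genes was within the bounds of its own class. The erythroid markers were unequal too: Hbb-bs had a TPM of 11770.5 and 6656.21, Hba-a1 6572.64 and 3361.02 and Alas2 9.32 and 3.14, while Klf1 had 984.09 and 1394.03. Their log2 ratios of counts were -0.67 for Hbb-bs, -0.79 for Hba-a1, -0.36 for Alas2 and 0.62 for Klf1. For Alas2, with 397 and 200 counts, the TPM was thus further apart than the counts. Of the 8 erythroid markers 5 had a ratio below 0 and 3 above. The part of these marker differences in the lower values of Ermap, Icam4 and Rhag was not tested.

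Of 35 further genes that carry or make blood group antigens, 20 were present by the same mark, beside the 38.3% of protein-coding genes, and 10 were listed at 0 in both. The highest by mean were Bsg (basigin, of the Ok group) at 744.13 and 834.69, Smim1 (Vel) at 281.63 and 249.01, and Slc29a1, the nucleoside transporter of the Augustine group, at 313.15 and 161.17. Ache, at 222.73 and 251.33, had nearly the same mean as Slc29a1 and was above Slc29a1 and Smim1 in replicate 2. Each of these exceeded the 9 genes in both libraries. Those listed at 0 were mostly the enzymes that make carbohydrate antigens: Abo, Fut1, Fut2, Gcnt2, A4galt, B3galnt1 and Gbgt1, together with Ackr1, C4b and Cd59b. Between the libraries 5 of 24 of these genes differed by 2-fold or more, or 20.8%, beside the 13.2% of all genes. Cd151, Aqp3, Abcg2 and Pigg were lower in replicate 2, with log2 ratios of -1.72, -1.48, -1.18 and -1.09, and Sema7a was higher, on 3 and 8 counts.

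**Figure D5:**
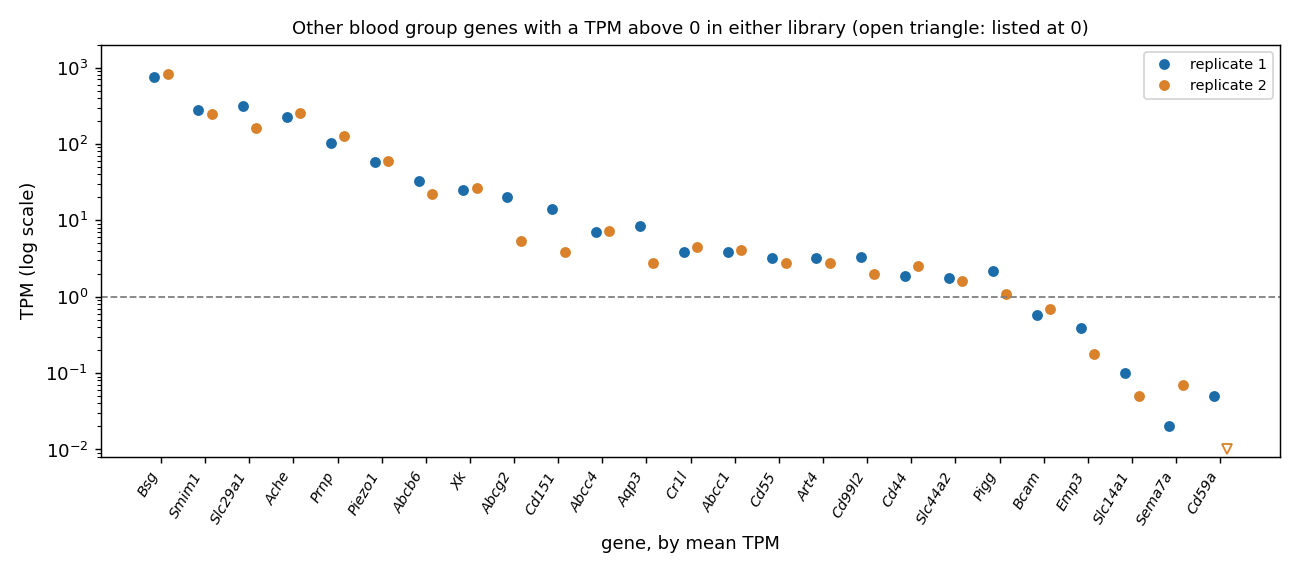
TPM (log axis) in replicate 1 and replicate 2 of the other blood group genes listed above 0 in either library, ordered by mean; the dashed line marks a TPM of 1 and an open triangle a gene listed at 0. Bsg is highest at 744.13 and 834.69, and Abcg2, Cd151 and Aqp3 show the widest gaps among the genes above the line.

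Of the 17 partner genes, whose products join, anchor or face the 9 proteins, 13 were present, beside the 38.3% of all protein-coding genes. The highest were Add1, an adducin of the spectrin-actin junction, at 542.54 and 497.29, then Car2 and Sptb. Those below were Epb42, Itgb3, Tmod1 at 0.20 and 0.23, and Sirpa. Between the libraries 1 of 16 differed by 2-fold or more, Itgav, which was higher in replicate 2, beside 13.2% of all genes in either direction and 3.51% in that direction. In the families of the 9 proteins, 12 of 37 genes, the members included, were present, again beside 38.3%, led by Icam2, Icam4 and Slc4a2. In the Rh family no relative outside the red cell pair was present. In the anion exchanger, aquaporin, Kel and Icam families, by contrast, at least 1 relative had a higher mean TPM than the red cell gene.

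Because the line is built around Gata1, the DNA before each gene was searched for the letters that GATA factors bind. RefSeq promoter windows (GRCm38.p6, 250 bases before to 50 bases after the start) were available for 7 of the 9 genes, and none was used for Slc4a1 and Gypc. The motif AGATAA was searched on both strands together with AGATAG; the forms that open with T, which are TGATAA as well as TGATAG, were included. No match overlapped another. Ermap, Rhd, Kel, Icam4 and Rhag had at least 1 match, and Aqp1 and Cd47 had none, beside 29.8% of 32851 windows with at least 1. Kel had 2 matches, and 7.77% of all windows had at least 2. The RefSeq start of Aqp1 lies upstream of the GENCODE start of the gene, so its window covers other bases than the start counted here. The same windows were searched for CCNCNCCC, a pattern that KLF factors bind, on both strands: Rhd, Aqp1 and Icam4, or 3 of 7 genes, had at least 1 match, beside 49.5% of all windows. The E-box CANNTG was found in Rhd, Kel, Aqp1 and Icam4, or 4 of 7 genes, beside 72.3% of all windows. The matches are printed with 12 bases on each side, 5' to 3' along the gene's strand and with the motif in capitals, because 5 genes with unequal TPM share them. TTATCA and TTATCT are the motifs read on the opposite strand.
Ermap: tgaacgctcgctTTATCAggggtgggcaga
Rhd: cccggcagcctgAGATAAgacctttggcgg
Kel, outer: cctgagaaactaAGATAAaagaggaggtga
Kel, inner: gtgttccctcacTGATAAgcaggctccacc
Icam4: cagggtgccttcTTATCTcctgcggccagc
Rhag: agtcctctgctcTTATCAacactatacagc
They lie at chr4:119190045-119190074 for Ermap and chr4:134864481-134864510 for Rhd, at chr6:41704364-41704393 and chr6:41704327-41704356 for Kel, at chr9:21029377-21029406 for Icam4 and at chr17:40811106-40811135 for Rhag. The motifs begin 67 bases before the RefSeq start in Ermap, 43 in Rhd, 56 and 19 in Kel, 43 in Icam4 and 31 in Rhag. The stretch of Icam4 lies inside the first exon that GENCODE draws, whose start is further upstream. The inner stretch of Kel and that of Rhag run past the GENCODE starts of those genes, at 41704339 and 40811126. The inner motif of Kel ends on that start, and the motif of Rhag lies before it. The genes with a match ranged in mean TPM from 2.395 for Kel to 77.8 for Ermap, while of the genes without one Cd47 stood at 23.1 and Aqp1 at 0.01, below every gene with a match. A match is a description of the letters, and no binding was measured.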

How the data were processed

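The authors deposited a gene and a transcript table for each of the 2 polyA libraries. The deposited expected counts are estimated fragments, not whole and not normalized. The deposited TPM values are scaled by effective length, with a posterior mean TPM and interval bounds beside them, and the deposited percent values give each transcript's share of its gene. Per the notes deposited with the files, values came from transcriptome alignments on mm10 with GENCODE M4; the aligner and quantifier are not given in the sources used here. Names and positions came from GENCODE M21 on GRCm38, the same assembly.

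Shares were computed from transcript TPM and expected counts. Ratios between libraries used expected counts rounded to whole numbers, TMM scaling by edgeR 4.0.16 (R 4.3.3), a prior count of 0.5 and genes with at least 10 summed counts; a fold of at least 2 was the mark. This step was tested on simulated data. A gene counted as present where its TPM reached 1 in each library. Errors are SD (n = 2), and no p-value was computed, as there is 1 group. All 9 genes were named, with the 3 highest genes of each list and those a result turns on. Others were named after their values were seen. Transcripts with at least 5% of the gene's TPM in either library were to be named, but not all were. Kel-202, Kel-203 and Kel-205 entered only a sum, and Ermap-207 was not described in the text. The members and lists were chosen with earlier results of these data known. Alternatives covered the TPM estimate, scaling, thresholds, filters, prior count and the omission of each library. Some listed genes are not reported here and entered no list count.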

Additional observations from a re-analysis of the deposited data

How the results depend on the processing

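Leaving out each library in turn kept the median TPM of the 9 genes between 9.01 and 14.89, with 7 of them present either way. At a TPM of at least 5 the other blood group genes present numbered 10 in place of 20, and the family genes 6 in place of 12. Genes past the fold between libraries numbered 0 under every scaling tried. They numbered 1 with a filter of 1 count, which adds Aqp1 and passes 34.3% of all genes, and 4 at a fold of 1.5, which passes 33.2%. Scaling by total counts moved the median log2 ratio of all genes from -0.022 to -0.230 and left 6 of the 8 genes below 0; TPM in place of counts left 5. With the posterior mean TPM Slc4a1 stood at 1.1 and Kel at 2.88, and 7 levels moved by less than the SD. Of the 6 genes with 2 or more transcripts, the leading transcript held at least 90% of the TPM in both libraries for Gypc, Slc4a1 and Cd47, and by posterior mean for Gypc and Cd47. Ratios to Slc4a1, Kel and Rhd, given above with an alternative estimate, were recomputed after the values were seen. No paired analysis was possible because there is 1 group. With 2 libraries that cite 1 biological sample, the SD may understate the spread between cultures.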
